A study of Rattus norvegicus with 6 samples.

Results

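Collagen genes were followed in whole ovaries of 4-day-old female Sprague-Dawley rats, kept on floating filters in serum-free medium for 48 h. The collagen chains were all genes whose only symbol in the array annotation has the form Col, a type number, a and a chain number. This gave 41 genes with 58 probe sets, of 14217 genes with 20826 probe sets in all, and each gene was read from the probe set with the highest mean log2 signal. There were 3 control arrays, from ovaries given no factor, and 3 arrays from ovaries given 50 ng/ml of recombinant human NT3, the neurotrophin encoded by Ntf3. Medium with BSA, albumax, ascorbic acid and transferrin was common to both groups. Each RNA sample came from 2 to 3 pooled whole ovaries, so all cell types of the organ contributed to every value, and NT3 could reach any of them. The labels call the samples biological replicates but name neither animals nor litters, so the p-values reflect array-to-array spread alone, which may be technical. All 5 oocyte genes in the annotation (Zp1, Zp2, Zp3, Gdf9 and Bmp15) lay above the signal filter described below. So did all 6 granulosa genes, among them Foxl2, Amh and Inha. That filter was passed by 10600 of the 14217 genes, so passing it does not by itself identify the tissue.

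Collagens are secreted proteins in which 3 alpha chains wind into a triple helix built on a regular repeat of glycine. Fibrillar types assemble into the fibrils of connective tissue, with type I made of the products of Col1a1 and Col1a2, type III of Col3a1 alone, and type V taking part in starting fibrils. Type IV forms the network of basement membranes, which in the ovary surround each follicle and the vessels. FACIT collagens are fibril-associated chains with interrupted helices, and the remaining types include the beaded filaments of type VI, the type VII anchoring fibrils, the networks of types VIII and X, the multiplexins XV and XVIII, and transmembrane chains. By these classes the 41 genes comprised 11 fibrillar, 5 basement membrane, 9 FACIT and 16 other chains.

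The start regions of 4 chains are shown because their values carry the comparisons below: Col1a2 of the type I trimer, Col5a1 of type V, Col6a1 of type VI, and the stretch between the head-to-head genes Col4a1 and Col4a2. The sequences are those of RefSeq on rat GRCr8, read 5′ to 3′ on the plus strand, on which Col1a2, Col5a1, Col6a1 and Col4a1 are transcribed. The first 3 are the 250 bases before the start site of the gene in the RefSeq promoter set. For Col5a1 the RefSeq gene bounds begin earlier, at base 31606475, so its printed stretch lies within the annotated gene. Capitals mark exact matches, on either strand, to the GC box GGGCGG, the CCAAT box CCAAT and the TATA box TATAAA. Col1a2 lies at chr4:33518307-33518556, Col5a1 at chr3:31606630-31606879, Col6a1 at chr20:11905440-11905689, and the stretch between the Col4a1 and Col4a2 starts at chr16:84885521-84885596.
Col1a2: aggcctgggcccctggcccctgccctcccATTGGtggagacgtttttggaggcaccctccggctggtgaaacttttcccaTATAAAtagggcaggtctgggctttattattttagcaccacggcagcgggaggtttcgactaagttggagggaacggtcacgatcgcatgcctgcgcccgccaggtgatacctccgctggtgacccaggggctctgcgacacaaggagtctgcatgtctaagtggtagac
Col5a1: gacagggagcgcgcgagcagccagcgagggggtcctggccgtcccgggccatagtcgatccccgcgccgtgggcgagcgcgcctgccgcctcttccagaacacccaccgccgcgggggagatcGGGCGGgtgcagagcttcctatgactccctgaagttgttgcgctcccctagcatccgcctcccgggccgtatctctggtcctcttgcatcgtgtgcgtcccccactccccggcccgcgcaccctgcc
Col6a1: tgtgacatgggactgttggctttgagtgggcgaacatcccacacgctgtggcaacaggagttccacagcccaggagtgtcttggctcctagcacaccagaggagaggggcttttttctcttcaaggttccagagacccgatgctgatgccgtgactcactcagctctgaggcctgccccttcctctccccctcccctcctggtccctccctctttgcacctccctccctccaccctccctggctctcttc
Col4a1 to Col4a2: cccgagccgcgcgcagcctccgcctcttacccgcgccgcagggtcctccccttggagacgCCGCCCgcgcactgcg

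The type IV genes are arranged as head-to-head pairs. By the start sites of the promoter set, Col4a1 and Col4a2 start 77 bases apart on chromosome 16 and point away from each other. Col4a3 and Col4a4 start 413 bases apart on chromosome 9, and Col4a5 and Col4a6 start 1415 bases apart on the X chromosome. The RefSeq gene bounds of the X-linked pair differ from these starts, at base 109907251 for Col4a5 and 109905987 for Col4a6. RefSeq promoters were found for 32 of the 41 chains. In the 250 bases before the start, 18 of these 32 held a GC box, against 32.4% of 27457 promoters of all genes, while 9 held a CCAAT box, against 34.3%, and 4 a TATA box, against 13.1%. In the sequences printed here, that of Col1a2 held 1 CCAAT match, on the minus strand, and 1 TATA match. The Col5a1 sequence and the stretch between Col4a1 and Col4a2 held 1 GC match each, and none of the 3 motifs was found in that of Col6a1. The windows of Col4a1 and Col4a2 share the stretch between their starts, so its GC match was counted for both genes. Such matches are letters in a window and were not tested as binding sites.

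The deposited MAS5 signals are linear, with a trimmed mean of 210.1 on every array. The RNA measures set control replicate 2 apart, with a 3′ to 5′ signal ratio of 6.83 for beta-actin against 2.42 to 2.91 on the other arrays, and of 1.70 against 1.09 to 1.25 for Gapdh. Results are therefore given with and without that array. A probe set was tested if its mean log2 signal reached 5.37, a signal of 41.3, which kept 18625 probe sets and 10600 genes. Of the 41 chains, 31 were tested: 8 of the 11 fibrillar, 4 of the 5 basement membrane, 5 of the 9 FACIT and 14 of the 16 other chains. A collagen signal measures transcript in bulk tissue, where fewer cells of a type and less RNA per cell cannot be told apart.

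The 10 untested chains had signals from 0.90 to 41.3 on single arrays. They were Col2a1, Col11a2 and Col24a1 among the fibrillar chains, Col4a4, the FACIT chains Col9a1, Col19a1, Col20a1 and Col22a1, and Col10a1 and Col17a1. Col2a1, the chain of cartilage fibrils, had 25, 41.3 and 17.1 on control arrays 1 to 3 and 28.1, 16 and 11.2 on NT3 arrays 1 to 3. Col10a1, the chain of hypertrophic cartilage, had 16.3, 37.3 and 28.5 in control and 9.90, 10.2 and 7.80 in NT3. All NT3 values of Col10a1 lay below all control values, but the gene was not tested at this level. None of the 6 chondrocyte markers in the annotation (Acan, Matn1, Cnmd, Snorc, Comp and Hapln1) reached the filter, and their summed signal was 119.5 to 142.5 in control and 126.2 to 140.3 in NT3.

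Across the tested collagen chains, signals were mostly slightly higher in NT3-treated ovaries, and no chain passed the test. Of 31 chains, 21 had a higher and 10 a lower mean log2 signal in NT3, or 67.7% higher against 47.4% of all tested genes. Their median log2 fold change was 0.081, or -0.0075 over all tested genes, and single chains ran from -0.44 for Col9a2 to 0.34 for Col12a1. By limma with Benjamini-Hochberg adjustment over all probe sets, 0 chains had an adjusted p under 0.05, with 0 of 18625 probe sets called (0%) and a lowest adjusted p of 1.00. An unadjusted p under 0.05 was reached by 0 chains and by 1.29% of all probe sets, or 2.15% with a replicate block. The arrays of the 2 groups did not overlap for 3 chains that were higher in NT3 (Col5a2, Col6a1 and Col13a1), or 9.68% of the chains against 2.62% of all probe sets, and for 1 that was lower (Col25a1), against 3.21%. Leaving out control replicate 2 gave 24 of 31 chains higher, with a median of 0.115, against 52.5% of all genes. Leaving out control replicate 3 gave 17 higher and a median of 0.020. Without NT3 replicate 1 the count was 18, with a median of 0.049. Averaging all probe sets of a gene also gave 18, with a median of 0.054. With control replicate 2 left out, 5 of 5 oocyte genes had a lower mean in NT3 (median -0.33, or -0.084 with all arrays). So did 4 of 6 granulosa genes (median -0.21, or -0.061), against 5038 of all 10600 tested genes. In that fit all 7 endothelial markers were lower, while 6 of 8 fibroblast and stroma and 4 of 7 smooth muscle and pericyte markers were higher. The part of these cells in the collagen values was not tested.

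**Figure D1:**
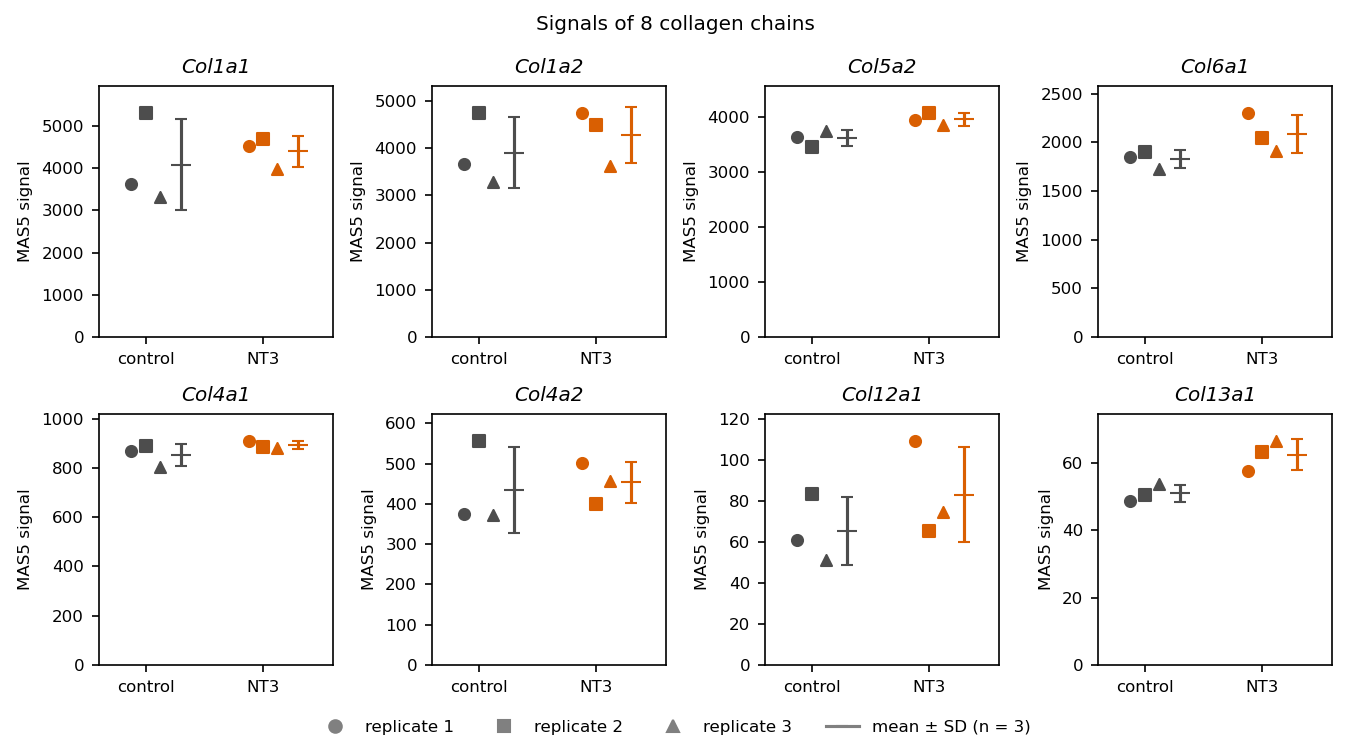
MAS5 signals (linear scale from 0) of 8 collagen chains on the 3 control and 3 NT3 arrays, with the shape giving the replicate number and the bar the mean and SD (n = 3). Col5a2, Col6a1 and Col13a1 show no overlap between groups, while Col1a1, Col1a2, Col4a2 and Col12a1 have control replicate 2 above the other controls.

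The type I chains had slightly higher mean signals in NT3, with control replicate 2 well above the other controls. Col1a1 had signals of 3611, 5301 and 3315 on control arrays 1 to 3 and 4520, 4685 and 3972 on NT3 arrays 1 to 3. Its partner Col1a2 had 3667, 4744 and 3295 in control and 4748, 4482 and 3618 in NT3. Control replicate 2 exceeded every NT3 array of Col1a1 and NT3 replicates 2 and 3 of Col1a2, and NT3 replicate 3 of Col1a2 also lay below control replicate 1, so the groups overlapped in both genes. The log2 fold change was 0.14 ± 0.17 (SE) for Col1a1, a fold of 1.10 with a 95% interval of 0.84 to 1.43, and 0.14 ± 0.15 for Col1a2, neither past the test by limma (unadjusted p = 0.443 and 0.384). With control replicate 2 left out these were 0.34 ± 0.098 for Col1a1, with an unadjusted p of 0.00693, and 0.29 ± 0.12 for Col1a2, with 0.0407. With control replicate 3 left out they were 0.0020 and 0.028. The weaker probe sets of these genes had -0.028 for Col1a1 and 0.23 for Col1a2 with all arrays.

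Types III and V share fibrils with type I, and their main chains Col3a1, Col5a1 and Col5a2 varied less between arrays. Col3a1 had 8273, 9083 and 8374 in control and 8960, 9313 and 8778 in NT3, a log2 fold change of 0.073 ± 0.089. Col5a2 had 3646, 3455 and 3750 in control and 3947, 4078 and 3856 in NT3. All NT3 arrays were thus above all controls for Col5a2, by 0.13 ± 0.087 on the log2 scale (fold 1.10, 95% interval 0.96 to 1.26). Its second probe set, with 0.062, went the same way, but there the groups overlapped. Col5a1 had 552.4, 636.6 and 514.9 in control and 627.9, 610.2 and 572.4 in NT3, so that control replicate 2 again exceeded every NT3 array. Col5a3, the other type V chain, had 48.2, 76.1 and 48.4 against 42.0, 66.3 and 55.9, and its log2 fold change of -0.063 ± 0.28 became 0.16 without control replicate 2.

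The minor fibrillar chains had wider spreads. Col11a1, which joins type V and type XI fibrils, had 291.3, 178.1 and 201.8 in control and 276.6, 215.2 and 274.5 in NT3, with a log2 fold change of 0.21 ± 0.20 that became 0.066 with control replicate 2 left out and 0.42 with control replicate 1 left out. Col27a1 had 88.2, 110.6 and 61.5 in control and 135.4, 74.4 and 81.9 in NT3, with 0.15 ± 0.29. NT3 replicate 1 was its highest array, and without it the value was -0.11. As a group, 7 of the 8 fibrillar chains were higher in NT3, all but Col5a3, with a median of 0.13. Without control replicate 2 all 8 were higher, with a median of 0.17, and without control replicate 3 the median was 0.026.

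**Figure D2:**
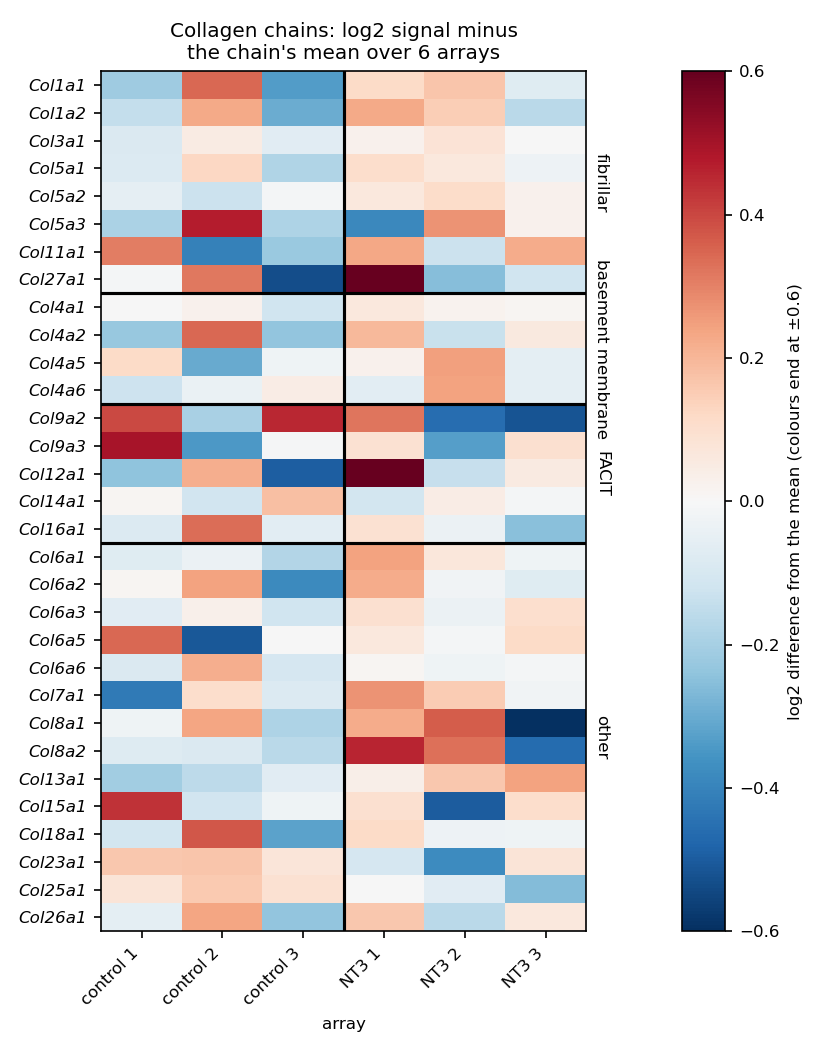
Log2 signal of the 31 tested chains (rows, by class) on each array (columns), minus the chain's mean over the 6 arrays, with red above and blue below that mean. Control replicate 3 is blue in most rows, and control replicate 2 is red for Col1a1, Col1a2, Col4a2, Col16a1 and Col18a1 but blue for Col11a1, Col4a5, Col9a3 and Col6a5.

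All 4 tested type IV chains had a slightly higher mean in NT3, with a median log2 fold change of 0.080. Col4a1, of the major basement membrane network, had 870.8, 888.2 and 803.2 in control and 910.8, 885.7 and 879.2 in NT3, with a log2 fold change of 0.064 ± 0.095. Col4a2, which starts on the other side of the 76 bases printed above, had 375.3, 557.3 and 372.1 in control and 502.5, 400.8 and 457.6 in NT3, with 0.081 ± 0.18. The head-to-head partners did not vary by the same amount, since the highest array was 1.13 times the lowest for Col4a1 and 1.5 times for Col4a2. Control replicate 2 was the highest of the 6 arrays for Col4a2. Without it, every NT3 array exceeded both controls in both genes. The log2 fold changes were then 0.093 ± 0.090 for Col4a1 and 0.27 ± 0.12 for Col4a2, the latter with an unadjusted limma p of 0.0494, while without control replicate 3 Col4a2 had -0.018.

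The X-linked pair showed another order of arrays. Col4a5 had 861.9, 646.0 and 782.5 in control and 810.4, 945.1 and 765.5 in NT3. Its log2 fold change of 0.14 ± 0.14 was 0.027 without control replicate 2, which was here the lowest array. Col4a6 had 147.6, 156.5 and 165.5 in control and 153.8, 189.7 and 154.1 in NT3, with 0.078 ± 0.15. In both genes NT3 replicate 2 was the highest of the 6 arrays and the groups overlapped. The second probe set of Col4a6 went the other way, with -0.23.

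FACIT chains were the class with the largest share of members lower in NT3, 4 of 5, against 5574 of 10600 tested genes. Their median log2 fold change was -0.095. Without control replicate 2, 3 of the 5 were lower, with a median of -0.121. Col9a2, a type IX chain, had 72.6, 48.2 and 75.6 in control and 68.9, 40.2 and 38.5 in NT3, with a log2 fold change of -0.44 ± 0.30 (fold 0.74, 95% interval 0.46 to 1.18) and -0.64 without control replicate 2. Col9a2 lay close to the filter of 41.3, and its values on NT3 replicates 2 and 3 were below it. Its type IX partner Col9a3 had 260.6, 145.6 and 183.7 in control and 197.2, 146.8 and 197.7 in NT3, with -0.095 ± 0.23, and 0.13 without control replicate 1. The third type IX gene, Col9a1, was below the filter and not tested, as was Col2a1, with whose fibrils type IX associates in cartilage.

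Col12a1, whose product binds type I fibrils, was the FACIT chain with a higher mean in NT3. It had 60.9, 83.6 and 51.1 in control and 109.4, 65.3 and 74.6 in NT3, with a log2 fold change of 0.34 ± 0.27 that was 0.54 without control replicate 2 and 0.13 without NT3 replicate 1. Col14a1, another partner of type I fibrils, had -0.050 ± 0.14 on a probe set with signals of 196.3 to 241.5. Its second, weaker probe set had 82.7, 69.5 and 49.6 in control and at least 88.1 on each NT3 array. Its log2 fold change was 0.53, at an unadjusted p of 0.0445 by limma, so the probe sets of this gene disagreed in direction. Col16a1 had 531.3, 709.7 and 537.8 in control and 598.3, 548.2 and 472.2 in NT3, with -0.13 ± 0.15. Its direction rested on control replicate 2, without which the value was 0.0067.

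**Figure D3:**
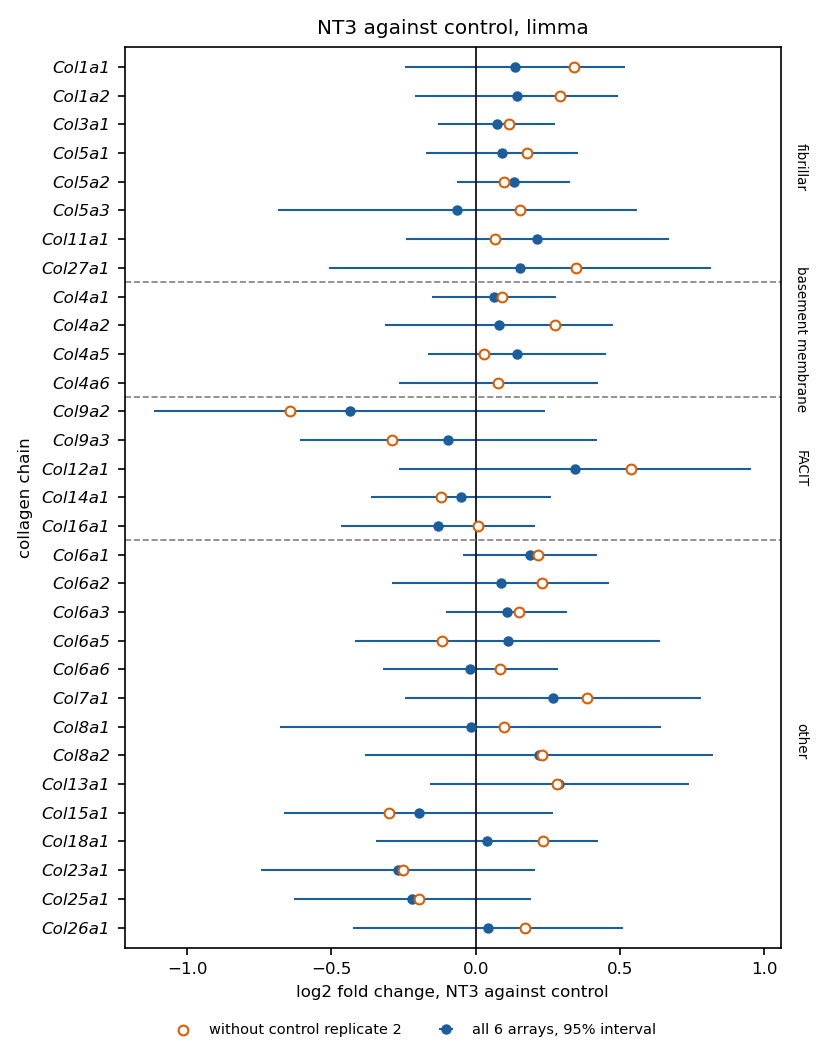
Log2 fold change of NT3 against control for the 31 tested chains, with the 95% interval from limma over all 6 arrays (filled circles and lines) and the estimate without control replicate 2 (open circles). Every interval includes 0, and leaving out that array moves Col1a1, Col1a2, Col4a2 and Col18a1 to the right and Col9a2, Col9a3 and Col6a5 to the left.

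Type VI forms beaded filaments in the interstitial matrix, and its main trimer holds the products of Col6a1, Col6a2 and Col6a3. Col6a1 had 1855, 1902 and 1725 in control and 2302, 2044 and 1912 in NT3, so all NT3 arrays lay above all controls, the nearest values being 1912 and 1902. Mean signals were 1827 ± 91.7 without and 2086 ± 199 with NT3 (SD, n = 3). The log2 fold change was 0.19 ± 0.10 (fold 1.14, 95% interval 0.97 to 1.34) at an unadjusted limma p of 0.101, the lowest among the chains. Col6a3 had 2755, 2951 and 2658 in control and 3088, 2822 and 3101 in NT3, with 0.11 ± 0.093. Col6a2 had 670.2, 787.4 and 509.7 in control and 777.3, 654.8 and 632.9 in NT3, with 0.087 ± 0.17. The groups overlapped for Col6a2 and Col6a3, and without control replicate 3, the lowest array for all 3 genes, Col6a2 had -0.084.

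A second probe set of Col6a3 stood apart in control replicate 2. It gave 311.5, 59.4 and 235.3 on control arrays 1 to 3 and 293.1, 180.9 and 261.2 on NT3 arrays, while the main probe set of the gene had its highest control value, 2951, on the same array. That array also had the beta-actin ratio of 6.83, and whether this bears on the difference between the probe sets was not tested.

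The additional type VI chains had no common direction. Col6a5 had 111.9, 62.0 and 88.1 in control and 92.1, 87.6 and 95.4 in NT3, and its log2 fold change of 0.11 ± 0.23 became -0.12 without control replicate 2. Col6a6 had 248.1, 305.7 and 245.3 in control and 265.4, 258.4 and 260.8 in NT3, and its -0.019 ± 0.13 became 0.084. The NT3 arrays of both genes lay close together, and control replicate 2 was the lowest array for Col6a5 and the highest for Col6a6.

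Among the transmembrane chains, Col13a1 was higher and Col25a1 lower on every NT3 array. Col13a1, a collagen of cell adhesion sites, had 48.8, 50.5 and 53.8 in control and 57.7, 63.1 and 66.6 in NT3, with a log2 fold change of 0.29 ± 0.20 (fold 1.22, 95% interval 0.90 to 1.67). Col25a1 had 80.2, 84.7 and 80.9 in control and 75.9, 72.4 and 63.4 in NT3, with -0.22 ± 0.18. These signals lie close to the filter of 41.3, and neither gene passed the test. Col23a1 had 66.1, 66.3 and 62.2 in control and 55.1, 45.5 and 62.3 in NT3, with -0.27 ± 0.21 and overlapping groups.

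The multiplexins, which sit at basement membrane zones and release endostatin-type fragments, had no settled direction. Col18a1 had 554.4, 773.9 and 479.7 in control and 648.5, 586.0 and 587.2 in NT3, with a log2 fold change of 0.039 ± 0.17, or 0.23 without control replicate 2 and -0.11 without control replicate 3. Col15a1 had 432.0, 296.0 and 314.5 in control and 342.1, 226.6 and 344.6 in NT3, with -0.20 ± 0.21, or 0.0031 without NT3 replicate 2 and 0.084 on its second probe set. For Col18a1 control replicate 2 was above all NT3 arrays, and for Col15a1 NT3 replicate 2 was below all other arrays.

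The remaining chains had small signals. Col7a1, of the anchoring fibrils that tie epithelial basement membranes to the stroma, had 41.5, 60 and 52.6 in control and 67.1, 62.0 and 54.9 in NT3, with a log2 fold change of 0.27 ± 0.23. The type VIII network genes Col8a1 and Col8a2 had -0.017 ± 0.29 and 0.22 ± 0.27, and both had their lowest value on NT3 replicate 3. Col8a1 was at 55.6, 66.6 and 49.7 in controls and at 66.0, 72.8 and 37.0 in NT3, and had 0.097 without control replicate 2 and 0.29 without NT3 replicate 3. Col26a1 had 0.042 ± 0.21. Of the 14 chains in these other classes, 9 were higher in NT3 with a median of 0.064, and without control replicate 3 the median was -0.071.

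Deviations of same-numbered control and NT3 arrays correlated at 0.22 to 0.25 over the tested probe sets, so the differences were also read within each number. The labels do not state such a pairing. In replicate 1, 21 of 31 chains were higher in the NT3 array (67.7%, against 51.5% of all tested genes), with a median difference of 0.16 on the log2 scale. In replicate 3 the count was 23 (74.2%, against 52.3%), with a median of 0.13. In replicate 2 it was 13 (41.9%, against 42.8%), with a median of -0.064. Replicates 1 and 3 were both higher for 17 chains (54.8%, against 25.95% of genes). All 3 were higher for 5 chains (16.1%, against 9.69%), namely Col3a1, Col5a2, Col6a1, Col7a1 and Col13a1. All 3 were lower for 2 of the 31 chains, Col9a2 and Col25a1, against 1225 of 10600 genes. For Col1a1 the fold within the number was 1.25, 0.88 and 1.20, for Col4a2 it was 1.34, 0.72 and 1.23, and for Col12a1 1.80, 0.78 and 1.46. In these examples the second comparison opposed the other 2. Col4a5 had the reverse, with folds of 0.94, 1.46 and 0.98. The second comparison was made against control replicate 2, the array with the beta-actin ratio of 6.83. That array was the highest control for Col1a1, Col4a2 and Col12a1 and the lowest for Col4a5, and its part in these differences was not tested.

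**Figure D4:**
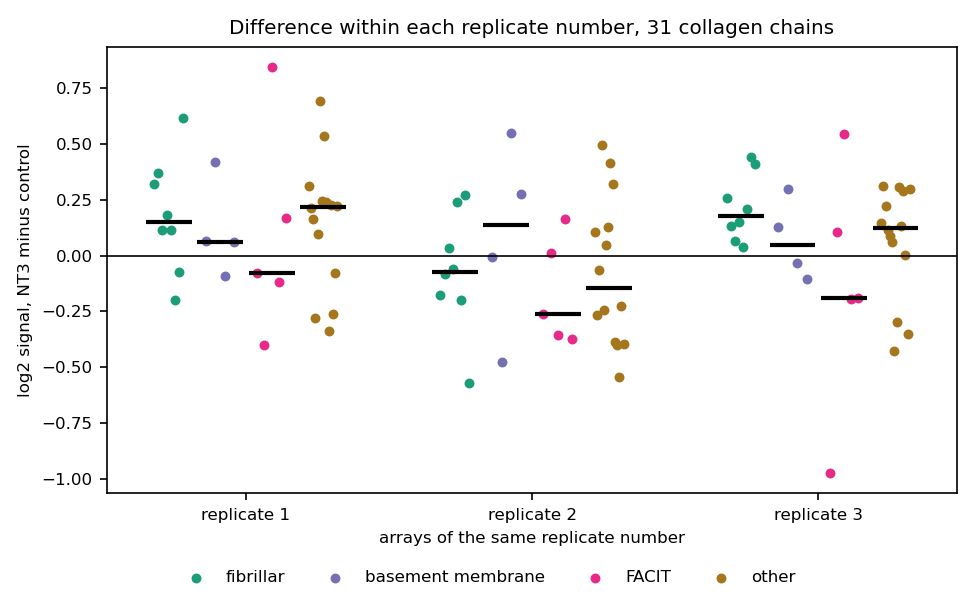
Log2 signal of the NT3 array minus that of the control array of the same replicate number, for the 31 tested chains (points, coloured by class; bars, class medians). Fibrillar and other chains lie mostly above 0 in replicates 1 and 3 and spread around a median below 0 in replicate 2, while FACIT chains have medians below 0 in all 3.

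Without control replicate 2, 3 chains (Col1a1, Col1a2 and Col4a2, all higher in NT3) had an unadjusted limma p under 0.05, or 9.68% of the chains against 3.52% of all probe sets, and 0 passed after adjustment. The groups then did not overlap, with NT3 higher, for 13 of 31 chains, or 41.9% against 8.81%. With NT3 lower they did not overlap for 2 chains, Col9a2 and Col25a1, against 801 of 10600 tested genes. In a fit that also held the replicate number as a block, chosen after the data were seen and resting on replicates 1 and 3 alone, 9 chains had an unadjusted limma p under 0.05 and all 9 were higher in NT3, or 29.0% of the chains against 2.14% of all probe sets in that direction. They were Col1a1 (0.29 ± 0.092, SE), Col1a2, Col27a1, Col4a2 (0.36 ± 0.11), Col12a1, Col6a1, Col6a2, Col6a3 and Col18a1. None of them was among the 4 probe sets (0.0215%) that passed adjustment in that fit. The NT3 arrays had beta-actin ratios of 2.78 to 2.91 where these controls had 2.42 and 2.60, and Gapdh ratios of 1.21 to 1.25 where they had 1.09 and 1.14, so RNA measures moved with the groups, and their part in the collagen values was not tested.

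Single arrays were compared with the share that all tested genes give. Control replicate 2 was the highest of the 6 arrays for 11 of 31 chains (35.5%), as it was for 35.8% of all genes. Control replicate 3 was the lowest for 13 chains (41.9%, against 16.5% of genes), and NT3 replicate 1 was the highest for 7 (22.6%, against 12.3%) and the lowest for 1. The median of the chains, relative to each chain's own mean, was -0.070, 0.107 and -0.119 on control arrays 1 to 3 and 0.096, -0.0097 and -0.013 on NT3 arrays 1 to 3. Both the high control replicate 2 and the low control replicate 3 thus lay in the control group.

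Markers of smooth muscle and pericytes, cells that also make collagen, had mixed directions. Their summed signal over all 9 genes was 785.7, 1076 and 736.1 in control and 1030, 931.4 and 701.3 in NT3, so that control replicate 2 and NT3 replicates 1 and 2 were high, as for Col1a2. Of the 9, 7 were tested, 3 of them with a higher mean in NT3, with a median log2 fold change of -0.024; Cnn1 and Rgs5 lay below the filter and none was at 0. The sum is carried by Tagln, Acta2 and Des, whereas Myh11, with 70.2, 69.5 and 77.3 in control and 45.4, 50.8 and 62.2 in NT3, and Cnn1 were lower on every NT3 array than on any control. Without control replicate 2, 4 of the 7 had a higher mean, with a median of 0.097. Markers of fibroblasts and stroma had another order, with sums of 12761, 9540 and 13294 in control and 14023, 13407 and 13089 in NT3, lowest in control replicate 2. All 8 had a higher mean in NT3, against 47.4% of all tested genes, with a median of 0.17, or 6 of 8 and a median of 0.10 without that array. Endothelial markers, all 7 of 7 with a lower mean in NT3 (median -0.10), had sums of 2101 to 2344 in control and 2001 to 2263 in NT3. The part of these cell types in the collagen values was not tested.

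Procollagen chains are modified, folded, cut and crosslinked by dedicated enzymes, and as a group these genes were read like the chains. Of 36 listed maturation genes, 27 were in the annotation and 24 were tested, 16 with a higher and 8 with a lower mean in NT3 and a median of 0.012, so that 66.7% were higher against 47.4% of all genes. An unadjusted limma p under 0.05 was reached by 0 of the 24, against 1.29% of all probe sets, and without control replicate 2 by 1, Loxl3 (0.0160), against 3.52%. Loxl3, a crosslinking amine oxidase of the lysyl oxidase family, had 44.8, 66.1 and 32.5 in control and 76.6, 66.6 and 54.2 in NT3, with a log2 fold change of 0.51 ± 0.29, or 0.77 without control replicate 2. P4ha3, a catalytic subunit of prolyl 4-hydroxylase, had 0.26 ± 0.27, and Loxl1, another crosslinking enzyme, 0.081 ± 0.12. P3h4, which belongs to a hydroxylation complex, had -0.19 ± 0.17, and Pcolce, the enhancer of procollagen C-proteinase, -0.16 ± 0.19, or 0.025 without control replicate 2. Sec24d, of the vesicle coat that exports procollagen, had 0.16 ± 0.20, or -0.098 without control replicate 2. The collagen chaperone gene Serpinh1 had 1320, 1403 and 1299 in control and 1526, 1379 and 1200 in NT3, with 0.023 ± 0.11, and the groups overlapped.

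Genes whose products bind collagen fibrils or cells to collagen were also read. Lum, Dcn and Fn1 belong both to the fibroblast and stroma markers above and to the regulators of fibril formation. All 13 tested regulators, among them Lum, Dcn, Fmod and Bgn, had a higher mean in NT3, against 47.4% of all tested genes, with a median of 0.23. Their median per array was -0.065, -0.323 and 0.079 in control and 0.17, 0.14 and -0.028 in NT3, so control replicate 2 was the lowest array for this list and, at 0.107, the highest for the collagen chains, as it was for all tested genes, whose median there was 0.064. Without it 12 of 13 were higher and the median was 0.117. Within the list, Bgn and Fmod followed the chains in control replicate 2, with 1272 and 656.9 against at most 840.6 and 334.6 in the other controls, whereas Lum, Ogn and Aspn were at their lowest there. Of the collagen receptors, 3 of 5 tested genes were higher, and Itgb1, the beta-1 integrin chain shared by collagen-binding integrins, had 2688, 2554 and 2770 in control and 3129, 3001 and 3042 in NT3. All NT3 arrays of Itgb1 lay above all controls, with a log2 fold change of 0.20 ± 0.087 and an unadjusted limma p of 0.0506, or 0.0391 with the replicate block. Neither fit gave it an adjusted p under 0.05. The discoidin receptor genes Ddr1 and Ddr2, whose products bind collagen, had -0.15 ± 0.14 and 0.091 ± 0.19.

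**Figure D5:**
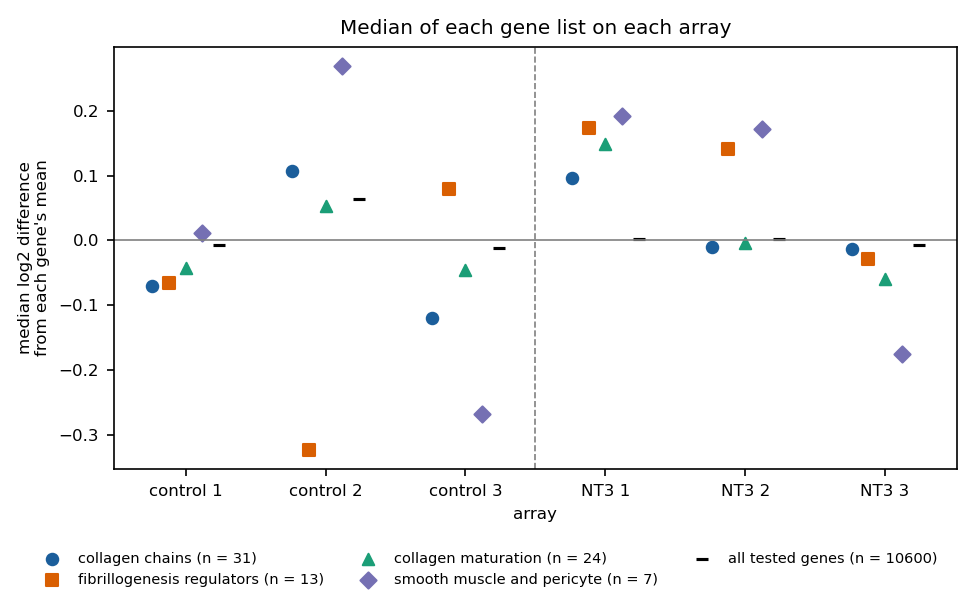
Median, over the tested genes of each list, of the log2 signal minus each gene's mean over the 6 arrays, for each array. In control replicate 2 the collagen chains (0.107, against 0.064 over all tested genes) and the smooth muscle and pericyte markers lie above 0 and the fibril regulators (-0.323) below it.

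Where a chain had several probe sets, their directions were mixed. The 31 tested chains had 15 further probe sets, of which 11 lay above the filter, 7 with the sign of the main probe set and 4 against it. The 4 belonged to Col1a1, Col4a6, Col14a1 and Col15a1. The 4 below the filter, of Col11a1, Col12a1 and Col6a2, were all against it, so 7 of the 15 had the sign of the main probe set and 8 did not. Those tested for Col1a2, Col5a1, Col5a2, Col11a1, Col4a1, Col6a3 and Col18a1 all had a higher mean in NT3.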

How the data were processed

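The deposited intensity values were 1 MAS5 signal per probe set on 6 one-colour arrays of rat ovary RNA; MAS5 is named in the submitters' processing notes, and its version and scaling are not given in the sources used here. Equal trimmed means (2% at each end) show that the authors' table of 31099 probe sets was scaled. Most MAS5 probe sets target the 3′ end of a transcript, so degraded RNA moves them unevenly. The 57 control probe sets were removed, log2 was taken with 0.1 in place of 5 zeros, and probe sets below the 40th percentile of the mean were left out. NT3 was compared with control by limma 3.58.1 in R 4.3.3 (lmFit, eBayes with trend, 2-sided, Benjamini-Hochberg over 18625 probe sets), and the fit was tested on simulated data.

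Array names came from the platform annotation; all 41 Entrez identifiers were found in RefSeq's GRCr8 table with the same symbols. The members and lists were chosen with earlier results of these data known. Every tested chain is named; values per array are given for chains whose groups do not overlap, whose sign turns without control replicate 2, or with the 2 largest changes of a class, and were added for others after their values were seen. Of the maturation list the 6 genes with the lowest p are named, and Serpinh1 was added afterwards. Deviations from the group means correlated at 0.230, 0.247 and 0.222 for arrays numbered 1, 2 and 3, and at most 0.029 otherwise. Centring each group on its own mean makes its deviations balance. The low values for unequal numbers thus follow in part from the others and are no separate evidence of pairing. The numbers were taken to pair the arrays, from the data and not the labels. The alternatives were that block, quantile normalization, centring, other filters, an offset of 16, no trend, averaged probe sets and arrays left out. The number of arrays limits the precision: the median standard error was 0.18 on the log2 scale.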

Additional observations from a re-analysis of the deposited data

How the results depend on the processing

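No chain had an adjusted p under 0.05 in any of the 16 alternatives, and over all probe sets 0 were called, except 4 without control replicate 2 and with the replicate block. With only the replicate block added, the count of chains with an unadjusted p under 0.05 stayed at 0, while Itgb1 (0.0391) and Lum (0.0423) and the second probe sets of Col1a2 (0.0288) and Col11a1 (0.0238) came under 0.05 unadjusted. That count was 1 with no filter and with no variance trend, 3 without replicate 2 in both groups, 9 without control replicate 2 and with the replicate block, and 0 to 3 with single arrays left out. With single arrays left out, the median log2 fold change of all chains ran from 0.020 to 0.115, of fibrillar chains from 0.026 to 0.17, of basement membrane chains from 0.057 to 0.10, of FACIT chains from -0.17 to -0.057, of other chains from -0.071 to 0.16 and of maturation genes from -0.053 to 0.065. The median of all chains kept its sign in all alternatives. The count of all probe sets with an unadjusted p under 0.05 was 240, against 123 with the filter at a higher percentile, 752 with no filter, 377 with no variance trend, 401 with the replicate block, 514 without replicate 2 in both groups, 962 without control replicate 2 and with the replicate block, and 176 to 656 with single arrays left out.

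Of 31 chains, 14 kept their sign in every alternative and 17 did not. With single arrays left out the log2 fold change ran from -0.21 to 0.16 for Col5a3, -0.11 to 0.35 for Col27a1, -0.018 to 0.27 for Col4a2, -0.022 to 0.13 for Col4a6, -0.29 to 0.13 for Col9a3, -0.12 to 0.028 for Col14a1, -0.21 to 0.0067 for Col16a1, -0.084 to 0.23 for Col6a2, -0.12 to 0.31 for Col6a5, -0.075 to 0.084 for Col6a6, -0.20 to 0.29 for Col8a1, -0.30 to 0.0031 for Col15a1, -0.11 to 0.23 for Col18a1 and -0.067 to 0.17 for Col26a1. With all probe sets of a gene averaged, Col11a1 had -0.18, Col4a6 -0.074, Col12a1 -0.18, Col14a1 0.24 and Col6a2 -0.14. Without replicate 2 in both groups, and likewise without control replicate 2 and with the replicate block, Col5a3 had 0.0046, Col4a5 -0.060, Col4a6 -0.022, Col6a5 -0.083 and Col6a6 0.093. Quantile normalization gave 0.0048 for Col8a1. The cause of these turns was not tested. A change shared by all RNA of an ovary would not appear in scaled signals, and chains near the filter carry the widest intervals.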
